A study of Homo sapiens with 6 samples.

Results

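The FOXO transcription factors are 4 human genes, FOXO1, FOXO3, FOXO4 and FOXO6, and all 4 were found by symbol among the 56832 rows of a gene count table. FOXO4 was selected on its higher count in the knockout than in wild type, and the other 3 were taken as its family. Poly(A)-selected RNA was measured in 3 libraries of HEK293T cells labelled as knocked out for SMARCA3 and in 3 libraries of wild-type HEK293T cells, all grown in the same serum-containing medium. SMARCA3 is the product of HLTF, a helicase and ubiquitin ligase. HEK293T is a human embryonic kidney line transformed with adenovirus DNA that also expresses the SV40 large T antigen. The labels do not say how the knockout was made, or whether the libraries of a group came from separate cultures or from 1 clone. The p-values therefore reflect the spread among these libraries, which may be technical.

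FOXO proteins are forkhead transcription factors that act downstream of insulin and growth factor receptors. When the receptors are active, AKT and SGK kinases phosphorylate FOXO proteins, and most members are then held in the cytoplasm by 14-3-3 proteins. When the pathway is quiet they enter the nucleus and raise genes of cell cycle arrest, cell death, oxidant defence, glucose metabolism and autophagy. Their activity is therefore set largely after translation, and an mRNA count says nothing of where the protein is.

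Total counts ran from 33125811 to 36804337 in the knockout libraries and from 38199454 to 41593655 in the wild-type libraries. HLTF mRNA averaged 143 ± 5.26 CPM in the knockout and 200.3 ± 13.1 CPM in wild type (SD, n = 3 each), which is -0.48 on the log2 scale (SE 0.05, edgeR adjusted p = 4.65e-05; exact permutation p = 0.1, two-sided, the smallest that 3 against 3 libraries allow). CPM here means counts per 1000000, with each library total taken over tested genes and scaled by TMM. Around HLTF, the median log2 fold change of 40 expressed genes was -0.50, and a gene count does not show whether the protein was lost. Among genes known from HEK293 cells, VIM averaged 117 CPM in the knockout and 183 CPM in wild type, and KRT8, KRT18 and CDH2 were also lower, while PAX2 was higher. The summed level of 8 fibroblast and endothelial markers was 6.11 to 6.93 CPM in the knockout and 6.51 to 8.31 CPM in wild type, nearly all of it COL1A1, with DCN at 0 in every library. The summed level of 6 blood markers was 2.82 to 3.34 CPM in the knockout and 2.41 to 3.54 CPM in wild type, with CD3E and HBB at 0 in every library. Whether these marker differences had a part in the results was not tested, and in RNA from whole cultures fewer expressing cells and less RNA per cell cannot be told apart.

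The forkhead domain binds DNA with the core GTAAACA, and related forkhead sites read ATAAACA. Both were searched on both strands (TGTTTAC and TGTTTAT on the other strand; neither core overlaps the other) in the RefSeq windows of GRCh38.p14 that run from 250 bases before to 50 bases after an annotated start. All 4 FOXO genes had such a window. FOXO4 held GTAAACA 23 bases past its RefSeq start, and of the 4 windows of FOXO3 1 held ATAAACA, whereas those of FOXO1 and FOXO6 held neither. The windows of FOXO4 and FOXO6 end before the starts of these genes in the GENCODE annotation (71096197 and 41361922), which is used for positions below. GTAAACA was present in 3.42% of all 35116 windows and ATAAACA in 4.24%. The windows of FOXO4 and FOXO3 are shown because these are the members with the higher levels in the knockout. For FOXO3, the printed window was picked as the 1 of its 4 that holds a core. Its window at chr6:108559575-108559874, which spans the GENCODE start of FOXO3, held neither core. Those of BCL2L11 and TXNIP are examples from the 5 listed FOXO target genes whose window holds GTAAACA, and both were called higher. Of the others, not shown, MXI1 was called higher and BTG1 and PIK3CA were not called. All printed windows are written 5′ to 3′ on the strand of the gene, with the core in capitals. FOXO4 lies at chrX:71095601-71095900 (+ strand), FOXO3 at chr6:108560667-108560966 (+ strand), BCL2L11 at chr2:111120664-111120963 (+ strand) and TXNIP at chr1:145996530-145996829 (- strand).
FOXO4: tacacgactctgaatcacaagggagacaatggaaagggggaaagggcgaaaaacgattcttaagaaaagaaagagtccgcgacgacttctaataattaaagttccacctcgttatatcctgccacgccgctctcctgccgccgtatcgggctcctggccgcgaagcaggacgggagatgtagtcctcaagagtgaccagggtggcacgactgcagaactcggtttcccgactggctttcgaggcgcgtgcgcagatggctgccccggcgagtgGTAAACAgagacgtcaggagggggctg
FOXO3: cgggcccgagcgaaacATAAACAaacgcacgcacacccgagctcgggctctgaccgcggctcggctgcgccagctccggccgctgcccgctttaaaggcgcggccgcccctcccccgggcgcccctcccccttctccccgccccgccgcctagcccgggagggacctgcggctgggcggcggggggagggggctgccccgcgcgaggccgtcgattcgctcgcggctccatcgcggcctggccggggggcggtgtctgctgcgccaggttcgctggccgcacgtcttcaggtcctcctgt
BCL2L11: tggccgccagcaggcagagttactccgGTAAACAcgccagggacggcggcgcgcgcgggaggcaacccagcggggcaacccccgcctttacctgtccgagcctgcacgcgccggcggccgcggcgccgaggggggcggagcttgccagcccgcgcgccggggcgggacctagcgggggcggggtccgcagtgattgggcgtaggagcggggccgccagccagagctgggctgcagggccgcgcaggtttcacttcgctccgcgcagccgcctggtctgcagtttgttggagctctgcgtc
TXNIP: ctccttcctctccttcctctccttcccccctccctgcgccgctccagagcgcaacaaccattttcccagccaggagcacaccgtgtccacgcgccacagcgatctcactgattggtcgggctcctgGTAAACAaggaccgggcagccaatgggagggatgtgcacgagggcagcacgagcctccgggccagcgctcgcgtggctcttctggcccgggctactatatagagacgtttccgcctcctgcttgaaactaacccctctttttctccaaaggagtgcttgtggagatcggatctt
A match is a description of these letters, not a measured binding site.

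FOXO4, a family member first known from leukaemia translocations and widely studied for its part in stress responses and cell senescence, had the largest difference of the 4 genes, which is why it was chosen. Its mRNA measured 80.0, 80.5 and 86.5 CPM in knockout replicates 1 to 3 and 21.5, 22.4 and 22.6 CPM in wild-type replicates 1 to 3. All 3 knockout libraries stood far above all 3 wild-type libraries. The means were 82.3 ± 3.58 CPM in the knockout and 22.2 ± 0.576 CPM in wild type (SD, n = 3 each), a log2 fold change of 1.89 (SE 0.05), or 3.72-fold. These values chose FOXO4, so they are given without a test. They rest on 8567 counts in the knockout and 2625 in wild type. The coefficient of variation between libraries was 4.35% in the knockout and 2.60% in wild type, beside 1.87% and 3.38% from counting error alone. Of the 10985 tested genes that averaged 5 CPM or more, 15 had a larger log2 fold change. None of the 50-base windows of FOXO4 transcripts in the GENCODE annotation occurs in another gene's transcripts, and its exons overlap no other annotated gene.

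**Figure D1:**
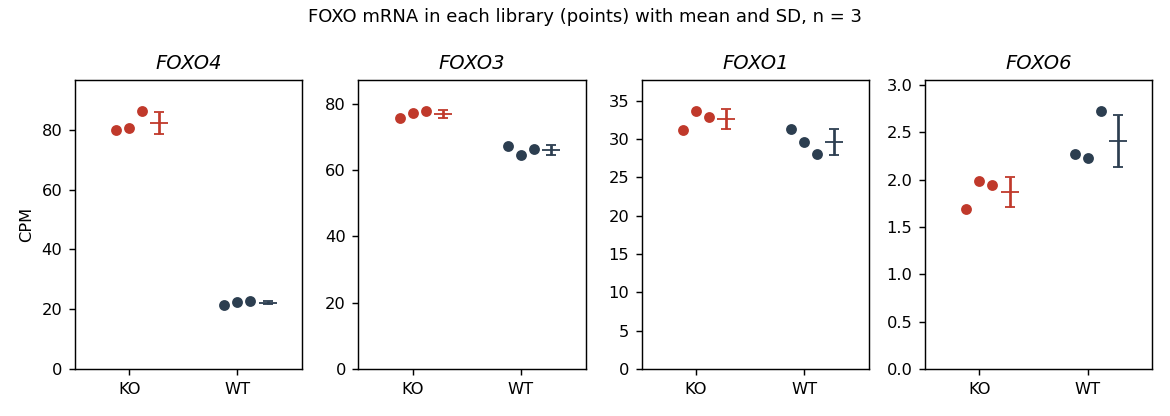
CPM of each FOXO gene (vertical axes, each starting at 0) in the 3 knockout libraries (KO, red) and the 3 wild-type libraries (WT, dark blue), with the mean and SD beside the points. FOXO4 stood at 80.0 to 86.5 CPM in the knockout against 21.5 to 22.6 CPM in wild type, while the groups of FOXO1 overlapped.

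FOXO3, the member most often linked to stress resistance and longevity, rose by a small amount. It measured 75.8, 77.4 and 78.0 CPM in knockout replicates 1 to 3 and 67.3, 64.5 and 66.5 CPM in wild-type replicates 1 to 3. The groups did not overlap, as in 45.6% of all tested genes, 21.2% with the knockout higher. The log2 fold change was 0.22 (SE 0.04, 95% interval 0.12 to 0.32, edgeR adjusted p = 0.00301), and its adjusted p stayed between 0.00053 and 0.0221 over the 14 alternatives tried. Of the 3 members that were not picked for their change, FOXO3 alone passed the threshold of 0.05, while 31.8% of all 18061 tested genes passed it, 14.0% higher and 17.7% lower.

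FOXO3 has a near-identical copy, FOXO3B, annotated as a processed pseudogene on chromosome 17, and 64.2% of the 50-base windows of FOXO3B also occur in FOXO3. In all, 27.8% of FOXO3's own windows occur in some other gene, 15.7% in FOXO3B and 10.9% in the noncoding AC026271.3. The split of reads between these rows, and whether shared reads were counted at all, is therefore uncertain. FOXO3B measured 6.15, 6.14 and 6.57 CPM in knockout replicates 1 to 3 and 5.69, 6.34 and 6.69 CPM in wild-type replicates 1 to 3. Its groups overlapped, and its log2 fold change was 0.01 (SE 0.09, 95% interval -0.20 to 0.22, edgeR adjusted p = 0.941), with a sign that turned without knockout replicate 3 (-0.02) and without wild-type replicate 1 (-0.04). FOXO3B held 7.35% to 9.13% of the reads of the pair in a library. With both rows added, the level was 83.3 ± 1.31 CPM in the knockout and 72.3 ± 1.31 CPM in wild type (SD, n = 3 each), a ratio of 1.15, close to the 1.17 of FOXO3 alone.

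FOXO1, the member best known for the control of gluconeogenesis and insulin sensitivity, did not pass the test. It measured 31.2, 33.7 and 32.9 CPM in knockout replicates 1 to 3 and 31.4, 29.6 and 28.01 CPM in wild-type replicates 1 to 3. The groups overlapped at knockout replicate 1 and wild-type replicate 1. The log2 fold change was 0.14 (SE 0.06, 95% interval -0.00058 to 0.27, edgeR adjusted p = 0.121). Without wild-type replicate 1 it was 0.19 and passed (edgeR adjusted p = 0.0229), so 1 wild-type library decided this call. Its exons share 269 bases with LINC00598 on the same strand.

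FOXO6, a member studied mainly in brain, was the lowest of the family. It had 58, 73 and 64 counts in knockout replicates 1 to 3 and 94, 87 and 104 counts in wild-type replicates 1 to 3. As CPM these were 1.69, 1.98 and 1.94 in the knockout and 2.27, 2.23 and 2.73 in wild type, so that each knockout library lay below each wild-type library. Over all tested genes the ranges were separate in 45.6%, lower in the knockout in 24.4% and higher in 21.2%. The log2 fold change of -0.36 (SE 0.14, 95% interval -0.67 to -0.05 before adjustment, unadjusted p = 0.0267) did not pass after adjustment (edgeR adjusted p = 0.0746). Counting error alone gives a coefficient of variation of 12.4% at the knockout counts and 10.3% at the wild-type counts.

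Per kilobase of annotated exon, on which scale genes can be compared, the order of the family differed between the groups. In the knockout FOXO4 led with 23.9 ± 1.04 CPM per kb, followed by FOXO3 with 9.98 ± 0.146, FOXO1 with 5.23 ± 0.204 and FOXO6 with 0.780 ± 0.0661 CPM per kb (SD, n = 3). In wild type FOXO3 led with 8.56 ± 0.186 CPM per kb, followed by FOXO4 with 6.43 ± 0.167, FOXO1 with 4.76 ± 0.270 and FOXO6 with 1.00 ± 0.115 CPM per kb. In both groups each gene's library range lay apart from that of the next gene in the order, with FOXO4 over FOXO3 by a ratio of 2.39 in the knockout, and FOXO3 over FOXO4 by 1.33 in wild type. The exon lengths used were 3447 bases for FOXO4, 7721 for FOXO3, 6232 for FOXO1 and 2398 for FOXO6. Reads that FOXO3 shares with other genes may have been counted or left out. Its levels per kb, and the ratios between it and FOXO4, are uncertain to that extent.

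The level of the 4 genes summed per kb was 38.7, 39.6 and 41.3 in the knockout libraries and 20.9, 20.5 and 20.8 in the wild-type libraries. FOXO4 made up 59.9%, 59.0% and 60.8% of that sum in knockout replicates 1 to 3 and 29.8%, 31.6% and 31.5% in wild-type replicates 1 to 3. The mean share was 59.9 ± 0.906% in the knockout and 31.0 ± 1.02% in wild type, and it follows from the values that chose FOXO4. FOXO3 made up 25.0 ± 0.488% in the knockout and 41.2 ± 0.499% in wild type. Within a library, where no scaling enters, there were 1.06, 1.04 and 1.11 FOXO4 counts per FOXO3 count in the knockout and 0.320, 0.347 and 0.339 in wild type.

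**Figure D2:**
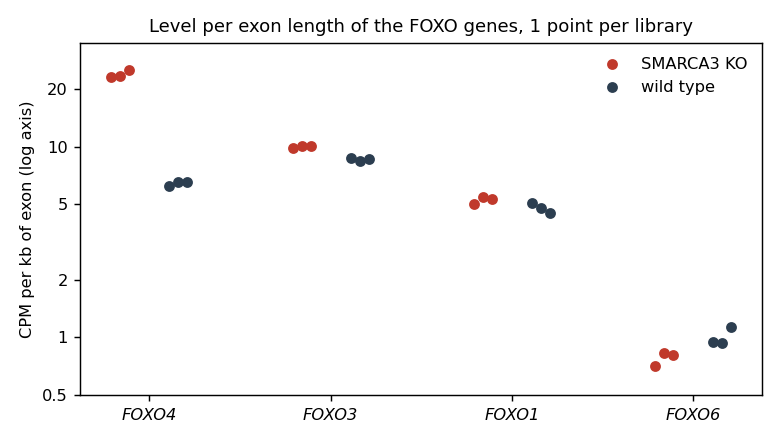
CPM per kilobase of exon (vertical log axis) of the 4 FOXO genes, with 1 point per library, knockout in red on the left and wild type in dark blue on the right of each gene. FOXO4 lay above FOXO3 in the knockout (23.9 against 9.98 CPM per kb) and below it in wild type (6.43 against 8.56 CPM per kb).

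The FOXO genes lie on 4 chromosomes, and the genes around them were compared because stretches of neighbouring genes moved together elsewhere in these cells, as around HLTF. FOXO4 lies on chromosome X between 71096197 and 71103535 (GRCh38, + strand). The median log2 fold change of its 40 nearest genes with at least 2 CPM was -0.04. Of these, 6 were called higher and 9 lower, beside 14.0% and 17.7% of all tested genes, and 0 of them reached the value of FOXO4. On the sides of FOXO4, SNX12, a sorting nexin, fell to 87.5 ± 3.13 CPM in the knockout against 97.4 ± 0.743 CPM in wild type (log2 fold change -0.15, edgeR adjusted p = 0.0195). That call was lost in 5 of 14 alternatives, among them leaving out knockout replicate 1, knockout replicate 2 or wild-type replicate 2 (edgeR adjusted p of 0.0597 to 0.156). MED12, a Mediator subunit, had 74.7 ± 0.451 CPM in the knockout and 72.8 ± 1.81 CPM in wild type (log2 fold change 0.04, edgeR adjusted p = 0.544).

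The other members also stood in neighbourhoods with medians near 0. The medians of their 40 neighbours were -0.02 around FOXO3 on chromosome 6 (108559835 to 108684774, + strand), -0.06 around FOXO1 on chromosome 13 (40469953 to 40666597, - strand) and 0.00 around FOXO6 on chromosome 1 (41361922 to 41383590, + strand). Of the 40 neighbours, 3 were called higher and 9 lower around FOXO3, 2 and 13 around FOXO1, and 5 and 10 around FOXO6. Over all tested genes these shares were 14.0% higher and 17.7% lower. The neighbours of FOXO1 ranged from -1.14 to 0.27. Around FOXO3, 3 of the 40 neighbours had a larger log2 fold change than FOXO3 itself. The nearest protein-coding genes of FOXO3 were SNX3, which was not called (log2 fold change -0.08), and ARMC2, which was higher by 0.38 (edgeR adjusted p = 0.00766). Those of FOXO1 were COG6, not called (-0.08), and MRPS31, with a log2 fold change of -0.28 (edgeR adjusted p = 0.00211). Those of FOXO6 were SCMH1, not called (0.04), and HIVEP3, higher by 0.35 (edgeR adjusted p = 0.0354), a call lost without knockout replicate 1 or 3 and without wild-type replicate 1 or 2 (adjusted p of 0.0711 to 0.112).

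**Figure D3:**
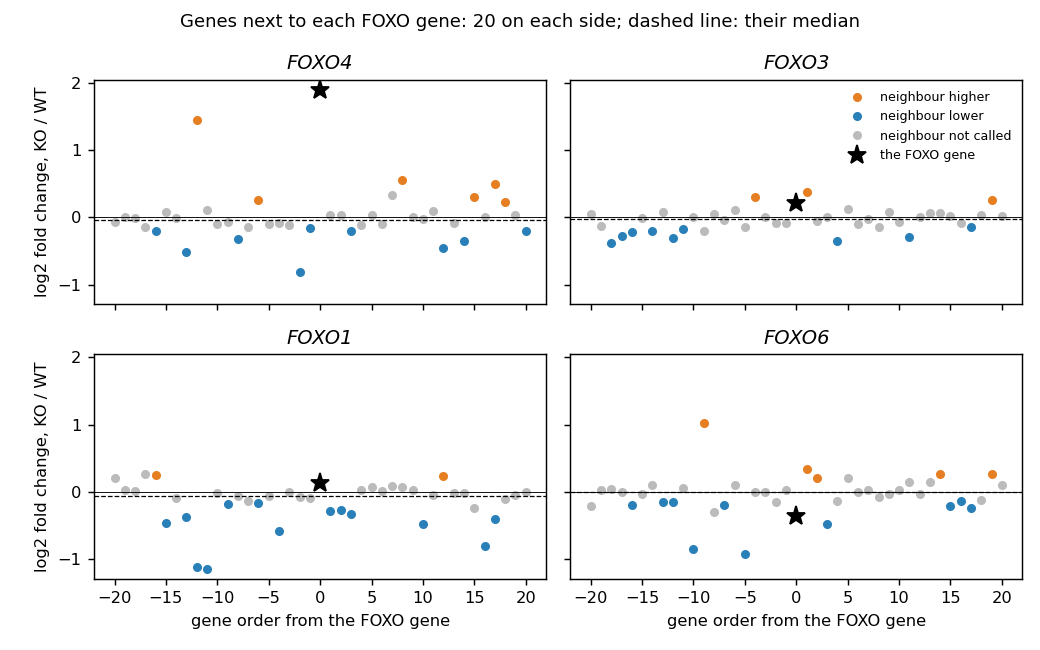
Log2 fold change of knockout over wild type (vertical axes) for each FOXO gene (star) and the 20 expressed genes on each side in chromosome order (horizontal axes), coloured orange where called higher, blue where called lower and grey where not called, with a dashed line at the median of the neighbours. FOXO4 stood at 1.89, above all 40 of its neighbours, whose median was -0.04.

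The 3 protein-coding genes whose profile was most like that of FOXO4 were TNC, GABRQ and PLEKHA4. They were found by the root mean square difference in log2 CPM centred on the wild-type mean, over 6 libraries and 10168 genes with at least 5 CPM, and the differences were 0.0866, 0.116 and 0.228. TNC, which encodes the matrix protein tenascin C, averaged 14.5 ± 0.936 CPM in the knockout and 3.64 ± 0.132 CPM in wild type. GABRQ, a GABA receptor subunit gene on chromosome X, averaged 10.0 ± 0.764 CPM in the knockout and 2.22 ± 0.249 CPM in wild type. PLEKHA4, a pleckstrin homology domain protein gene on chromosome 19, averaged 9.29 ± 0.645 CPM in the knockout and 2.80 ± 0.310 CPM in wild type (SD, n = 3 each for the 3 genes). The 6 libraries fall into only 2 groups, so many genes with a group difference of this size would score alike.

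Upstream of FOXO proteins, the share of genes called was near that of all genes, and single genes such as IGF1R, INSR and IRS2 were higher in the knockout. Of 32 listed genes from the receptors to AKT and its brakes, 31 were tested, with 7 higher, 3 lower and 21 not called in edgeR, so 32.3% were called, beside 31.8% of all tested genes. The median log2 fold change was 0.02, beside 0.00 over all tested genes. IGF1R, the IGF1 receptor, measured 143, 141 and 139 CPM in the knockout libraries and 93.5, 92.5 and 91.1 CPM in the wild-type libraries. Its groups lay well apart, with 0.61 on the log2 scale (SE 0.04, edgeR adjusted p = 9.72e-07). IRS2, the adaptor that links the insulin receptor to PI3K and a known FOXO target, measured 22.9, 21.3 and 21.1 CPM in the knockout and 11.7, 11.1 and 11.3 CPM in wild type. It was higher by 0.94 on the log2 scale (SE 0.07, edgeR adjusted p = 2.4e-06), and its exons overlap AL162497.1 on the other strand. INSR, the insulin receptor, averaged 36.4 ± 1.59 CPM in the knockout and 29.2 ± 1.27 CPM in wild type (log2 fold change 0.32, edgeR adjusted p = 0.00204). TSC1, which restrains mTORC1, was higher by 0.28.

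The 3 calls in the other direction were of a lipid phosphatase, a PI3K subunit and an AKT phosphatase. INPP4B, which removes a PI3K lipid product, fell to 0.630 ± 0.148 CPM in the knockout against 2.32 ± 0.443 CPM in wild type (log2 fold change -1.87). PIK3CD, a catalytic PI3K subunit, fell to 4.65 ± 0.261 CPM against 6.51 ± 0.502 CPM in wild type. PHLPP2, which dephosphorylates AKT, had a log2 fold change of -0.16, and that call was lost in 9 of 14 alternatives, among them leaving out any knockout replicate or wild-type replicate 2 or 3 (adjusted p of 0.0557 to 0.151). Its paralog PHLPP1, named after its value was seen, went the other way, with 31.0 ± 0.913 CPM in the knockout and 25.7 ± 0.901 CPM in wild type (log2 fold change 0.27, edgeR adjusted p = 0.00467). The kinase genes AKT1, AKT2 and SGK1 were not called. AKT1 averaged 78.0 ± 5.70 CPM in the knockout and 83.4 ± 11.9 CPM in wild type, AKT2 134 ± 6.41 CPM in the knockout and 129 ± 13.3 CPM in wild type, and SGK1 6.19 ± 0.168 CPM in the knockout and 6.18 ± 0.305 CPM in wild type (SD, n = 3 each). AKT1, AKT2 and SGK1 were named after their values were seen, to show the kinases that act on FOXO proteins directly.

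Among genes of proteins known to bind, modify or move FOXO proteins, the called share was also near that of all genes, with calls in both directions. Of 45 listed genes 44 were tested, with 8 higher, 5 lower and 31 not called in edgeR, so 29.5% were called, beside 31.8% of all tested genes, and the median log2 fold change was 0.00. EP300, which acetylates FOXO proteins, averaged 199 ± 3.68 CPM in the knockout and 152 ± 4.21 CPM in wild type (log2 fold change 0.39, edgeR adjusted p = 3.1e-05), beside a neighbour median of 0.31 on chromosome 22. Its partner CREBBP averaged 143 ± 5.13 CPM in the knockout and 116 ± 4.91 CPM in wild type (0.30), beside 0.11 on chromosome 16. The casein kinase gene CSNK1E (0.51) and the 14-3-3 eta gene YWHAH (0.27) also lie on chromosome 22, beside neighbour medians of 0.38 and 0.30. The 14-3-3 epsilon gene YWHAE fell to 1364 ± 18.2 CPM in the knockout against 1572 ± 25.8 CPM in wild type (log2 fold change -0.20, edgeR adjusted p = 0.00133). The 14-3-3 genes YWHAB, YWHAG, YWHAQ and YWHAZ were not called (-0.08 to 0.02), and SFN was not tested. PRKAA2, a catalytic AMPK subunit, had a log2 fold change of -0.27, the cell cycle kinase CDK2 of -0.18 and the JNK kinase MAPK10 of -0.79, at 0.677 CPM in the knockout and 1.18 CPM in wild type. The other catalytic AMPK subunit gene, PRKAA1, named after its value was seen, went the other way, with 90.3 ± 2.16 CPM in the knockout and 76.8 ± 5.03 CPM in wild type (log2 fold change 0.23, edgeR adjusted p = 0.00698). CDK2 lost its call without knockout replicate 1 or 3 or wild-type replicate 2 (adjusted p of 0.0613 to 0.0841), and MAPK10 without knockout replicate 1 or 3 (adjusted p of 0.0515 to 0.0737). Without knockout replicate 1, and likewise without knockout replicate 3, 2 genes of this list were called lower in place of 5, and 3 with DESeq2.

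Genes reported as FOXO targets moved in both directions. Of 70 listed targets 63 were tested, with 21 higher, 12 lower and 30 not called in edgeR, and the median log2 fold change was 0.04. The list includes CCND1 and CCND2, which FOXO proteins are reported to repress, so higher calls do not stand for a single direction of FOXO activity. The called share, 52.4%, stood beside 31.8% over all tested genes and 37.2% (16.9% higher, 20.3% lower) over the 10985 with at least 5 CPM. The target lists themselves were not cut at that level. The 7 that were not tested had too few counts and include the liver genes PCK1, G6PC and IGFBP1. Of the 21 higher genes, 4 (SOD2, TXN2, HMOX1 and BECN1) lie where the neighbours had a median of at least 0.2, and of the 12 lower genes, KLF6 and ATG4B lie where it was -0.2 or below. The part that position had in these results was not tested. Exons of PIK3CD, TSC1, INPP4B, PHLPP2, RICTOR, YWHAH, EP300, MAPK10, CDK2, CDKN1A, MXI1, CCND1, CCND2, DDIT4, SOD2, PINK1, MAP1LC3B, GABARAPL1, ATG4B, ATG12, BECN1, AKT1, BTG1 and PIK3CA overlap annotated genes on the other strand. Exons of CSNK1E, CCND2, SOD2, BTG1, YWHAH, ERBB3, EP300 and PINK1 overlap a gene on the same strand, the last 2 a microRNA gene, so reads at those exons may not be told apart.

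Of the 17 cell cycle targets 8 were higher, 2 lower and 7 not called, with a median of 0.19. The called share was 58.8%, beside 31.8% of all tested genes and 37.2% of those with at least 5 CPM. CITED2, a transcriptional cofactor, averaged 39.6 ± 1.17 CPM in the knockout and 27.9 ± 1.00 CPM in wild type (log2 fold change 0.51, edgeR adjusted p = 5.25e-05). The cyclin D genes CCND1 and CCND2, which FOXO proteins are reported to repress, were higher by 0.43 and 0.25, and MXI1, a MYC antagonist, by 0.19. CDKN1A, the p21 cell cycle inhibitor, fell to 7.85 ± 0.247 CPM in the knockout against 11.1 ± 0.681 CPM in wild type (log2 fold change -0.50, edgeR adjusted p = 0.000825). KLF6, a zinc finger factor, had -0.22 on the log2 scale where its neighbours had a median of -0.59, and its call was lost without knockout replicate 1 or wild-type replicate 2 (adjusted p of 0.0507 to 0.0967). CDKN1B, the p27 inhibitor that is the classic FOXO target, measured 39.2, 34.9 and 37.4 CPM in the knockout and 37.4, 32.2 and 37.7 CPM in wild type. Its groups overlapped (log2 fold change 0.05, SE 0.07, edgeR adjusted p = 0.608), and its sign turned without wild-type replicate 2 (-0.01).

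Of the 9 cell death targets, 7 were tested, with 3 higher, 1 lower and 3 not called. That is 57.1% called, beside 31.8% of all tested genes and 37.2% of those with at least 5 CPM. BCL2L11, the pro-apoptotic protein BIM, measured 52.3, 52.6 and 49.5 CPM in the knockout and 42.8, 43.2 and 43.4 CPM in wild type. Each knockout library exceeded each wild-type library (log2 fold change 0.25, SE 0.05, edgeR adjusted p = 0.00257), and its exons overlap MIR4435-2HG on the other strand. TXNIP, an inhibitor of thioredoxin, measured 33.2, 32.5 and 33.2 CPM in the knockout and 26.2, 25.0 and 23.6 CPM in wild type. Its groups lay apart by more than the spread within either (log2 fold change 0.40, edgeR adjusted p = 0.000449). BNIP3, a mitochondrial death and mitophagy protein, was higher by 0.20, a call lost without knockout replicate 3 or wild-type replicate 2 or 3 (adjusted p of 0.0652 to 0.106). DDIT4, an mTORC1 inhibitor induced by stress, had -0.59 on the log2 scale (edgeR adjusted p = 0.0096). BCL2L11 and TXNIP are the genes whose promoter windows are printed above. MXI1, BTG1 and PIK3CA are the other listed targets with GTAAACA in a window, 5 of the 54 targets that have one (9.26%), beside 4.19% of all 27305 genes with a window. ATAAACA was in the windows of 4 of the 54 (7.41%), beside 5.16% of all genes. Of these 5, BCL2L11, TXNIP and MXI1 were called higher, and BTG1 (0.09) and PIK3CA (0.07) were not called.

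Among 13 oxidant defence targets, 4 were higher, 1 lower and 8 not called, so 38.5% were called, near the 37.2% of all genes with at least 5 CPM. SOD2, the mitochondrial superoxide dismutase, averaged 161 ± 3.57 CPM in the knockout and 136 ± 5.62 CPM in wild type (log2 fold change 0.24, edgeR adjusted p = 0.00161), beside a neighbour median of 0.29 on chromosome 6. TXN2, the mitochondrial thioredoxin, and HMOX1, a heme-degrading enzyme, were higher by 0.30 and 0.33, beside neighbour medians of 0.37 and 0.34 on chromosome 22. SESN2, a stress-induced mTORC1 inhibitor, was higher by 0.22, a call lost without knockout replicate 3 (edgeR adjusted p = 0.0838). PINK1, a kinase of mitochondrial quality control, had a log2 fold change of -0.45, a call lost without knockout replicate 2 (edgeR adjusted p = 0.0575), and a value of -0.29 without wild-type replicate 3. CAT, the catalase gene, measured 35.9, 38.3 and 38.6 CPM in the knockout and 37.3, 35.5 and 37.0 CPM in wild type. Its groups overlapped (log2 fold change 0.04, SE 0.05, edgeR adjusted p = 0.617).

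Of 17 metabolic targets, 12 were tested, with 3 higher, 4 lower and 5 not called. So 58.3% were called, beside 31.8% of all tested genes and 37.2% of those with at least 5 CPM. The 4 lower genes averaged under 5 CPM in both groups, so they lie outside the set that gave 37.2%. The higher ones were IRS2 and INSR, described above, and RICTOR, the defining subunit of mTORC2. RICTOR was higher by 0.18, a call lost when any knockout replicate or wild-type replicate 2 or 3 was left out (adjusted p of 0.0798 to 0.101). IRS2, INSR, RICTOR and PIK3CA are also in the list of genes from the receptors to AKT, so the counts of these lists are not independent. PPARGC1A, the coactivator of mitochondrial biogenesis, measured 1.43, 1.33 and 1.42 CPM in the knockout and 4.72, 3.93 and 3.96 CPM in wild type. It was low in all libraries and lower in each knockout library (log2 fold change -1.59, SE 0.13, edgeR adjusted p = 7.87e-06). LPL, a lipase of lipoproteins, fell to 0.647 ± 0.247 CPM in the knockout against 1.96 ± 0.156 CPM in wild type, and ERBB3, a receptor of the EGF receptor family, to 2.45 ± 0.380 CPM against 4.26 ± 0.0725 CPM in wild type. PDK4, a kinase that inhibits pyruvate dehydrogenase, had a log2 fold change of -0.94 at 0.800 CPM in the knockout and 1.53 CPM in wild type, a call lost without knockout replicate 1 or 2 or wild-type replicate 1 (adjusted p of 0.0768 to 0.101).

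All 14 autophagy targets were tested, with 3 higher, 4 lower and 7 not called. Thus 50% were called, beside 31.8% of all tested genes and 37.2% of those with at least 5 CPM. ULK2, a kinase that starts autophagy, had the largest change, with 6.70, 7.31 and 7.73 CPM in the knockout and 20.003, 18.8 and 17.2 CPM in wild type. All 3 knockout libraries were far below all wild-type libraries (log2 fold change -1.36, SE 0.09, edgeR adjusted p = 9.72e-07), beside a neighbour median of -0.16. MAP1LC3B, which encodes the membrane mark LC3, fell to 87.5 ± 1.39 CPM in the knockout against 107 ± 4.49 CPM in wild type, its protease ATG4B had -0.32 on the log2 scale where its neighbours had a median of -0.34, and the LC3 relative GABARAPL1 had -0.18. ATG4B lost its call without knockout replicate 2 (edgeR adjusted p = 0.0543), and GABARAPL1 without knockout replicate 1 or 2 or wild-type replicate 2 or 3 (adjusted p of 0.0862 to 0.172). BECN1, a subunit of the autophagy PI3K complex, was higher by 0.35 beside a neighbour median of 0.30, and ATG14 of the same complex by 0.28. ATG12, a ubiquitin-like conjugate of autophagy, was higher by 0.21.

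**Figure D4:**
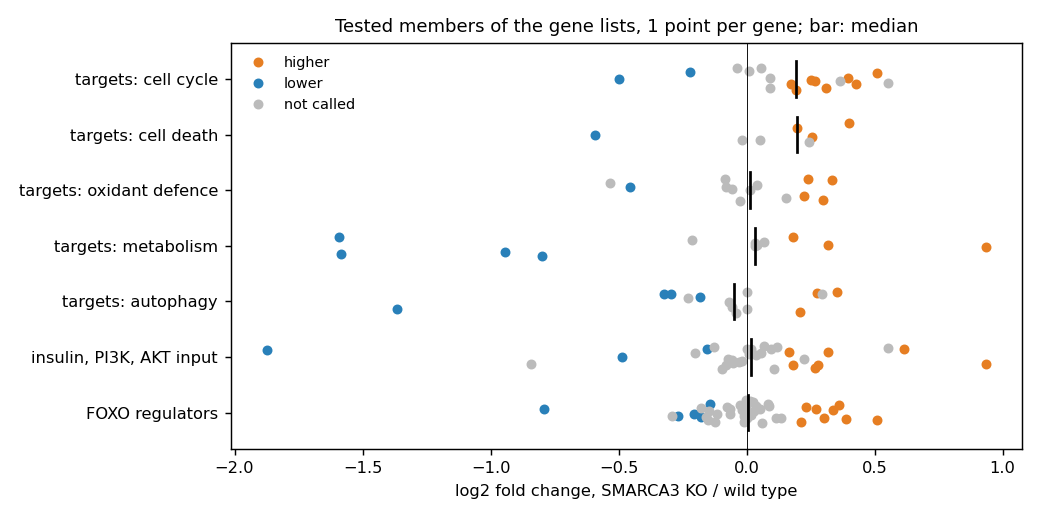
Log2 fold change of knockout over wild type (horizontal axis) of each tested member of the 5 FOXO target lists, the insulin to AKT list and the FOXO regulator list (rows), 1 point per gene, orange where called higher, blue where called lower and grey where not called, with a bar at the median of each list. The medians ran from -0.05 for autophagy targets to 0.20 for cell death targets.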

How the data were processed

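Raw counts, in whole reads, were deposited by the authors, with gene symbols as rows and libraries as columns. Per the submitters' processing notes, the build was hg38 and the tools include STAR 2.4 and HTSeq 0.9.1, with Trim Galore, Picard and DESeq2, in no stated order. The kit was a stranded mRNA kit, per the labels' protocols. Neither the annotation release nor the strand setting of the counting is stated, and genes that overlap on opposite strands may share reads.

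The test was that of edgeR 4.0.16 (R 4.3.3): filterByExpr left 18061 of 56832 symbols, scaling was TMM, and knockout was set against wild type by the quasi-likelihood F test without covariates, with two-sided p-values adjusted by Benjamini-Hochberg over all tested genes (threshold 0.05). A called gene passed it. Intervals of log2 fold changes are 95% intervals from that fit, and counting errors assume independent reads. A floor of 3 counts is 0.0723 to 0.0909 CPM. Counts of replicates were further apart than sampling alone gives (chi-square over its degrees of freedom 3.60 to 15.3), so all 6 libraries counted separately. The procedure was tested on simulated counts. Positions, exon lengths and transcripts came from GENCODE 29 (GRCh38), matched for 29709 symbols, and promoter windows from RefSeq. Windows of 50 bases were compared on both strands. Profiles were compared as log2(CPM + 0.5).

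The members and lists were chosen with earlier results of these data known. The genes named were HLTF, the FOXO genes and copies, their nearest tested protein-coding genes, the 3 genes most like FOXO4, in each list at most 4 called genes in each direction, by smallest p, and CDKN1B, BCL2L11, SOD2, CAT and IRS2 (others are said to be chosen after seeing values). Alternatives were RLE factors, library size only, no filter, 1 CPM in 3 libraries, DESeq2 1.42.0, limma-voom (limma 3.58.1), robust dispersion, a block for the replicate number, leaving out single libraries, and the longest transcript as gene length. Results for some genes are not reported here.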

Additional observations from a re-analysis of the deposited data

How the results depend on the processing

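FOXO3 stayed called higher in all 14 alternatives, FOXO6 stayed not called, HLTF stayed called lower, and the log2 fold change of FOXO4 ran from 1.86 to 1.93. FOXO1 ran from 0.10 to 0.19 as single libraries were left out and passed only without wild-type replicate 1. Leaving out single libraries gave 2 to 7 lower calls in the FOXO regulator list, and DESeq2 gave 3, against 5. It gave log2 fold changes of -0.041 to 0.071 for FOXO3B and -0.0074 to 0.10 for CDKN1B, both not called. With the longest transcript as length, levels per kb in the knockout and in wild type were 5.69 and 5.17 for FOXO1, 10.5 and 9.003 for FOXO3 and 24.9 and 6.71 for FOXO4, in the same order, and the share of FOXO4 was 59.5% and 30.7%. The calls over all genes ran from 1791 to 2881 higher and from 2309 to 3469 lower.

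Deviations of same-numbered libraries from their group means correlated at -0.56, -0.12 and -0.16. Deviations within a group are tied to each other, so these values cannot show whether libraries of the same number were handled together. With the replicate number as a block, 1791 genes were higher and 2441 lower, FOXO3 had 0.22 (edgeR adjusted p = 0.0221), FOXO1 0.14 (0.222 adjusted) and FOXO6 -0.36 (0.111 adjusted), and 8 named genes lost their call (PHLPP2, BNIP3, GABARAPL1, KLF6, RICTOR, PDK4, SNX12 and HIVEP3). No knockout library correlated best with the wild-type library of its number. Of 58 named genes, 13 lost a call in some alternative. With 195 knockout counts and 285 wild-type counts in all, depth limits FOXO6 most.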
